A study of Mus musculus with 12 samples.

Results

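The D-type cyclins (Ccnd1, Ccnd2 and Ccnd3), their kinases (Cdk4 and Cdk6) and 5 CDK inhibitors (Cdkn1a, Cdkn1b, Cdkn1c, Cdkn2a and Cdkn2c) were followed across macrophages and fibroblasts. These 10 genes were taken by symbol from the 32544 genes of the count table. RNA sequencing had been performed on bone marrow-derived macrophages (BMDMs) and on NIH/3T3 cells, an established mouse fibroblast line, with 3 libraries in each of 4 groups. Bone marrow had been differentiated for 7 days in L929-conditioned medium, and BMDM RNA was isolated 24 h after seeding. The BMDMs labelled WT came from mice that carry the LysMCre transgene. Those labelled PHD2cko carried in addition a conditional knockout of PHD2, a prolyl hydroxylase that marks HIF for degradation. Lysozyme M drives this Cre, which acts in macrophages and granulocytes. The starved 3T3 cells had received medium conditioned by either kind of BMDM for 72 h, and no 3T3 group without BMDM medium was analysed here. WT medium and PHD2cko medium stand for medium from the BMDMs so labelled. Neither the oxygen condition of the sequenced cultures nor the age of the donor mice is given in the sources used here, and the sources do not say whether the triplicates came from separate mice or cultures. The p-values therefore measure only the spread between these samples, which may be technical.

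D cyclins bind CDK4 and CDK6 when growth factors are present, and the active kinases phosphorylate the retinoblastoma (RB) proteins, which releases E2F factors to transcribe genes of S phase. INK4 inhibitors, such as the p16 and p18 proteins of Cdkn2a and Cdkn2c, bind CDK4 and CDK6 directly. CIP/KIP inhibitors, the p21, p27 and p57 proteins of Cdkn1a, Cdkn1b and Cdkn1c, bind cyclin-CDK complexes, and Cdkn1a is a classical target of p53. In macrophages these genes serve the proliferative response to colony-stimulating factor 1, which L929 cells secrete. NIH/3T3 is known as a line without the Ink4a/Arf locus.

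Library totals ran from 15516465 to 25199770 estimated counts, so that 3 counts were at most 0.193 counts per 1000000 counts in any library. The targeted gene, Egln1, which encodes PHD2, was at 55.4 ± 0.574 counts per 1000000 (CPM, after TMM normalization) in WT BMDMs and at 69.6 ± 1.77 CPM in those labelled PHD2cko (SD, n = 3 each). It was thus higher and not lower in the libraries labelled PHD2cko, and the table holds 1 value per gene and none per exon. The study itself presents PHD2 mRNA in PHD2cko BMDMs as a check of the knockdown, and reports raised HIF1α protein in them. Summed levels of 20 macrophage markers lay between 46530 and 47730 CPM in WT BMDMs and between 41750 and 43290 CPM in those labelled PHD2cko. In BMDMs 12 fibroblast markers summed to at most 8.88 CPM. Neutrophil, B cell, T cell, NK cell and dendritic cell markers summed to at most 4.995 CPM per list in every library, with the granulocyte genes Ly6g, Elane and Retnlg at 0 in all BMDM libraries. The 3T3 libraries were rich in fibroblast markers, between 30620 and 33750 CPM in WT medium and between 35610 and 37280 CPM in PHD2cko medium. Macrophage markers in them equalled 0.0846, 0.0874 and 0.0852% of their BMDM level in WT medium, but 2.35, 0.548 and 2.09% in PHD2cko medium. All 3 libraries in PHD2cko medium were above those in WT medium (1.66 ± 0.972% against 0.0858 ± 0.00149%, SD, n = 3, two-sided exact permutation test p = 0.100, the smallest possible with 3 against 3), and 2 of them stood well above the other. The 3T3 results were therefore recomputed after subtraction of this share of the BMDM profile. Its size depended on the markers, since each part of the marker list gave 0.0282 or 0.338% in WT medium and 1.496 or 2.29% in PHD2cko medium.

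Sequence before the start site is shown for the kinase that was higher under the PHD2cko label in both cell types, for its partner kinase and for the inhibitor that was lower in both. The core of the HIF response element (ACGTG or GCGTG) is in capitals, read on either strand. ACGTG also lies within CACGTG, the E-box bound by MYC. The windows hold the 250 bases upstream of the RefSeq start on GRCm38.p6, on the plus strand, at chr5:3343643-3343892 for Cdk6, chr10:127063285-127063534 for Cdk4 and chr17:29093519-29093768 for the downstream of 2 starts of Cdkn1a.
Cdk6: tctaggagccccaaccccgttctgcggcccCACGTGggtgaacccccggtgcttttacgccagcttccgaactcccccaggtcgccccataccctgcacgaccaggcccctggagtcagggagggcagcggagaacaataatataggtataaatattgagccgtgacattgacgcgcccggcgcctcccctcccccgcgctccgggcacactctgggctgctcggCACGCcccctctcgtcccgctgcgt
Cdk4: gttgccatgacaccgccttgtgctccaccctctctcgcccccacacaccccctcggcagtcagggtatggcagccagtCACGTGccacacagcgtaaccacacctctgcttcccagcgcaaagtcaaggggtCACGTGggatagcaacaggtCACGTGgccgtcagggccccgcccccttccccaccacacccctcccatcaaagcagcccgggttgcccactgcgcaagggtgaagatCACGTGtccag
Cdkn1a: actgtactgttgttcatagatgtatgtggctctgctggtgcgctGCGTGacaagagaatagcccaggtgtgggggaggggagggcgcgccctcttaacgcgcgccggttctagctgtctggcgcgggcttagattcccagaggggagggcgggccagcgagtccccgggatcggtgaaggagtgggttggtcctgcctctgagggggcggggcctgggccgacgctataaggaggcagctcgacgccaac
The Cdk4 window held CACGTG 4 times, which only 7 of all 32851 such windows (0.0213%) did, and each of these palindromes was read as ACGTG on both strands. The Cdk6 window held 1 CACGTG and 1 GCGTG on the minus strand, and the Cdkn1a window 1 GCGTG, while the window of the other start of Cdkn1a held 0 of either. Of 11 windows, found for 7 of the 10 genes, 8 held at least 1 core, and so did 38.6% of all windows (ACGTG 16.6%, GCGTG 28.2%, CACGTG 6.02%). Ccnd1, Ccnd2 and Cdkn1c had no entry. These matches are letters in a window and were not tested for binding.

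In WT BMDMs the inhibitor Cdkn1a stood highest per length, followed by Cdk4, and Ccnd3 was the main D cyclin. For this comparison between genes, CPM were divided by the length of the longest annotated transcript in kb. Cdkn1a was at 87.6 ± 2.11 CPM per kb, Cdk4 at 43.3 ± 0.837, Cdkn1b at 25.5 ± 0.217 and Ccnd3 at 18.9 ± 0.577 (SD, n = 3 here and below). Cdkn2c followed at 17.97 ± 1.00 CPM per kb and overlapped with Ccnd3. Lower levels were found for Cdk6 (5.96 ± 0.457 CPM per kb), Cdkn1c (4.999 ± 0.204) and Ccnd1 (3.46 ± 0.592). Ccnd2 (0.473 ± 0.102) and Cdkn2a (0.420 ± 0.155) came last and overlapped with each other. All other neighbours in this order were apart in all 3 libraries. With the mean transcript length, Ccnd3 lay above Cdkn1b instead.

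Fibroblasts had another order, led by Cdk4 at 202 ± 22.8 CPM per kb in WT medium. Cdkn1a (55.9 ± 2.89) and Ccnd2 (48.8 ± 4.69) came next, so that the cyclin lowest in macrophages was the highest D cyclin in fibroblasts. Ccnd3 (33.3 ± 1.58) and Cdkn2c (33.2 ± 3.80 CPM per kb) overlapped, and were followed by Ccnd1 (26.3 ± 1.21), Cdkn1b (22.9 ± 0.702) and Cdk6 (4.10 ± 0.696). Cdkn1c (0.0216 ± 0.0196) and Cdkn2a (0 in all 3 libraries) were at or near 0 and overlapped.
In PHD2cko-labelled BMDMs, Ccnd3 (16.4 ± 0.386 CPM per kb) lay below Cdkn2c (20.3 ± 1.38) without overlap, while Cdkn1c (6.82 ± 0.260) and Ccnd1 (6.78 ± 0.993) overlapped. In 3T3 cells in PHD2cko medium, Ccnd2 (43.0 ± 1.26 CPM per kb) lay above Cdkn1a (38.8 ± 3.36) in all libraries, Ccnd1 overlapped with both Cdkn2c and Ccnd3, and Cdkn2c lay above Ccnd3 without overlap. These orders rest on the longest transcript. With the mean transcript length (Ccnd3 1180.8 bases, Cdkn2c 1788.5), Ccnd3 lay above Cdkn2c in both of these groups. On that length Ccnd2 (1638.6 bases) and Ccnd3 lay above Cdkn1a (1409.0) in both media.

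Of the group, 8 genes differed between WT BMDMs and 3T3 cells in WT medium, 3 higher in BMDMs and 5 lower, in a comparison in which 85.3% of the 14285 genes tested passed the threshold, 40.4% higher in BMDMs and 44.9% lower (edgeR's quasi-likelihood test, Benjamini-Hochberg adjusted p under 0.05). Cells, culture medium, time and genotype all differ between these groups and cannot be told apart. Fewer cells of a type and less RNA per cell cannot be told apart in such bulk libraries either. Cdkn2a did not pass the filter on low counts, and Cdkn1c, which passed it through the BMDM libraries, is not counted among the 8. D cyclins and Cdk4 were lower in BMDMs, Ccnd2 with a log2 difference of -6.69 (standard error, SE, 0.121, adjusted p = 1.68e-14), or 103-fold. Its level was 2.30 to 3.57 CPM in the WT BMDM libraries and 276.7 to 335.3 CPM in the 3T3 libraries. Ccnd1 was 7.60-fold lower in BMDMs, Cdk4 4.67-fold, Cdkn2c 1.84-fold and Ccnd3 1.76-fold. In the other direction, Cdk6 was 1.45-fold higher in BMDMs, Cdkn1a 1.57-fold and Cdkn1b 1.12-fold, the last with an adjusted p of 0.00275 in edgeR's test. The median log2 difference of the 8 genes was -0.85, and that of all genes tested -0.08.

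**Figure D1:**
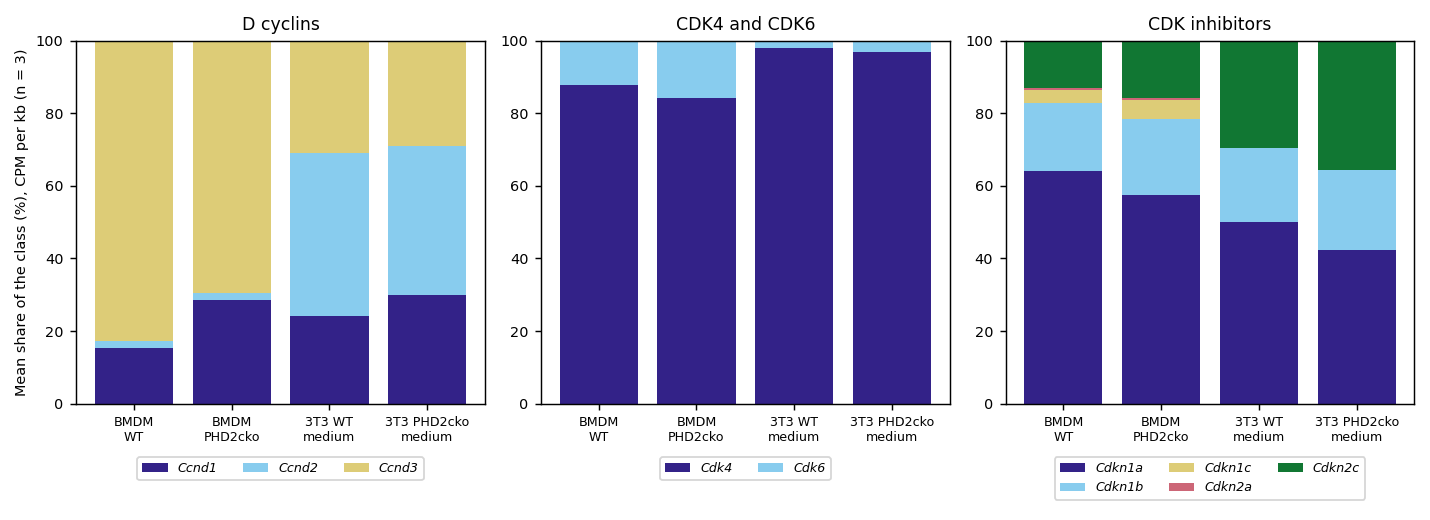
Mean share of each gene in its class (%, from CPM per kb, 3 libraries per group) for D cyclins, CDK4 and CDK6, and CDK inhibitors in the 4 groups. Ccnd3 makes up 82.7% of the D cyclins in WT BMDMs and 69.5% under the PHD2cko label, whereas each of the 3 cyclins holds at least 24.3% in 3T3 cells in WT medium (14.2% with the mean transcript length).

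The make-up of each class was next compared within libraries. Of the D cyclin level per length, Ccnd1 held 17.0, 16.3 and 12.2% in the WT BMDM libraries and 31.2, 28.8 and 26.0% in those labelled PHD2cko. Ccnd3 went from 82.7 ± 2.59% to 69.5 ± 2.77% (SD, n = 3), and neither share overlapped between the labels. In 3T3 cells, Ccnd1 held 24.3 ± 0.395% in WT medium and 29.9 ± 3.26% in PHD2cko medium, with all of the latter libraries (31.6, 26.1 and 31.9%) above the former (24.0, 24.7 and 24.1%). Cdk6 held 12.1 ± 0.620% of the CDK4 and CDK6 level in WT BMDMs and 15.8 ± 0.934% under the PHD2cko label. In 3T3 cells the share of Cdk6 was 2.03 ± 0.525% in WT medium and 3.07 ± 0.214% in PHD2cko medium, again without overlap. Among the inhibitors, Cdkn1a held 64.2 ± 0.924% in WT BMDMs and 57.6 ± 0.591% in those labelled PHD2cko, and 49.9 ± 0.990% and 42.4 ± 2.19% in 3T3 cells. These shares depend on the transcript length used: with the mean transcript length, Ccnd1 held 9.29% of the D cyclins in WT BMDMs and 18.7% under the PHD2cko label, and 14.2% and 18.1% in 3T3 cells in WT and PHD2cko medium. On that length Cdk6 held 21.9% and 27.6% of its class in BMDMs, and 4.04% and 6.06% in 3T3 cells.

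**Figure D2:**
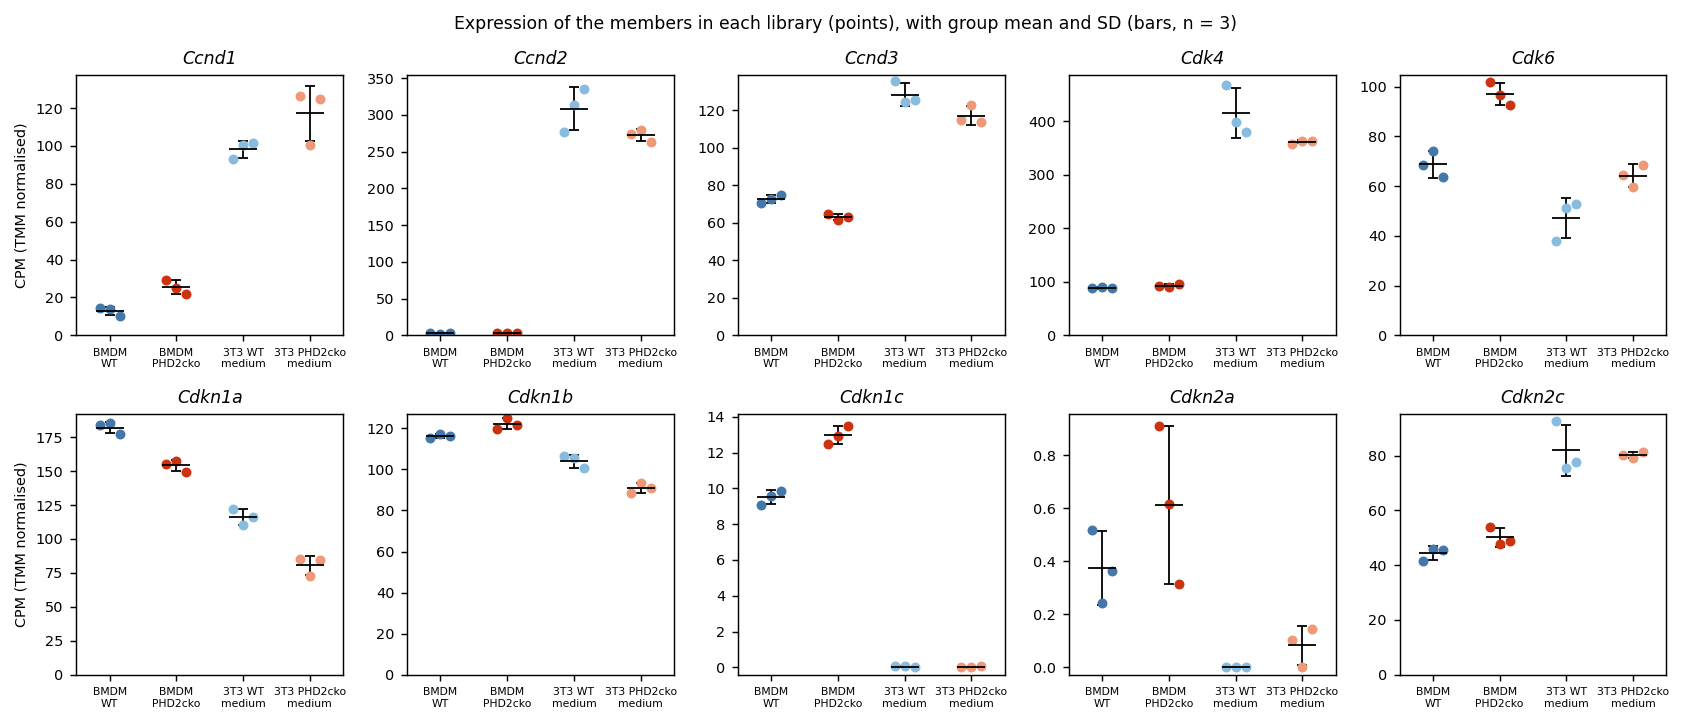
Level of each gene (CPM after TMM normalization, linear axis per gene) in every library (points), with the mean and SD of the 3 libraries of each group. Ccnd1 and Cdk6 lie higher and Cdkn1a lower in the BMDM libraries labelled PHD2cko than in WT, and Cdkn1c and Cdkn2a lie at or near 0 in 3T3 cells.

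The next comparison asks how BMDMs labelled PHD2cko differed from WT. Ccnd1 and Cdk6 were higher and Ccnd3 and Cdkn1a were lower, which made 4 of 9 genes tested, against 6.73% of all genes. In this comparison 3.38% of all genes were higher and 3.35% lower. The median log2 fold change of the 9 genes was 0.07, and that of all genes 0.00022. In 7 of the 9 the libraries of the labels did not overlap, 5 higher (16.3% of all genes) and 2 lower (15.6%), where 31.9% of all genes had no overlap.

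Ccnd1, the cyclin most closely tied to growth factor signals, showed the largest difference of the group. This gene (ENSMUSG00000070348.5, chromosome 7, 144929931 to 144939925 on GRCm38) was at 14.4, 14.0 and 10.4 CPM in WT replicates 1, 2 and 3, and at 29.3, 24.9 and 21.9 CPM in those labelled PHD2cko. Every library labelled PHD2cko lay above every WT library. Its log2 fold change was 0.97 (SE 0.145, edgeR adjusted p = 0.00125), or 1.96-fold.

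Ccnd3, the cyclin prominent in haematopoietic cells, went the other way. Its gene (ENSMUSG00000034165.16, chromosome 17, 47505051 to 47599691) was at 70.6, 72.8 and 75.0 CPM in WT and at 64.7, 61.8 and 62.9 CPM under the PHD2cko label. The groups did not overlap, and Ccnd3 fell by 0.21 on the log2 scale (SE 0.0507, edgeR adjusted p = 0.0290, and 0.0573 with the replicate number as a block). Bysl lies on the opposite strand within its bounds, and whether counting used strand is not given in the sources used here. Ccnd2, at 3.57, 2.30 and 3.10 CPM in WT and 3.22, 2.60 and 2.41 CPM under the PHD2cko label, overlapped between labels. Its log2 fold change of -0.12 (95% confidence interval -0.54 to 0.29, edgeR adjusted p = 0.822) was not distinguishable from 0 at this low level.

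Of the kinases, Cdk6 was higher and Cdk4 was not called. Cdk6 (ENSMUSG00000040274.11, chromosome 5, 3341485 to 3531008) was at 68.4, 74.1 and 63.6 CPM in WT and at 101.7, 96.8 and 92.6 CPM in libraries labelled PHD2cko. The groups lay well apart, with a log2 fold change of 0.50 (SE 0.103, edgeR adjusted p = 0.0107), or 1.41-fold. Cdk4 (ENSMUSG00000006728.12, chromosome 10, 127063534 to 127067920), which Tspan31 overlaps on the opposite strand, stayed between 87.6 and 95.3 CPM in all 6 libraries. Its log2 fold change was 0.05, with a 95% confidence interval of -0.10 to 0.21.

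Among the inhibitors, Cdkn1a was lower and Cdkn1c was higher in every library, the latter short of the threshold. Cdkn1a (ENSMUSG00000023067.14, chromosome 17, 29090976 to 29100727) was at 183.9, 185.6 and 177.3 CPM in WT and at 155.6, 157.6 and 149.4 CPM under the PHD2cko label. It fell by 0.24 on the log2 scale (SE 0.0609, edgeR adjusted p = 0.0326), without overlap. Cdkn1c (ENSMUSG00000037664.13, chromosome 7, 143458339 to 143461050), an imprinted gene, was at 9.09, 9.57 and 9.86 CPM in WT and 12.5, 12.9 and 13.5 CPM under the PHD2cko label. The groups were separate, with a log2 fold change of 0.45 (SE 0.129) and an edgeR adjusted p of 0.0610. Cdkn1b (115.2 to 117.1 CPM in WT, 119.8 to 125.3 under the PHD2cko label) and Cdkn2c (41.6 to 46.0 and 47.8 to 54.1 CPM) also had no overlap, but their log2 fold changes of 0.07 and 0.18 missed the threshold (edgeR adjusted p = 0.377 and 0.257). Cdkn2c passed it in a fit of the 6 BMDM libraries alone (0.0437). Cdkn2a had 8, 4 and 6 counts in WT and 15, 9 and 6 under the PHD2cko label, which did not pass the filter, and without a filter its edgeR adjusted p was 0.78.
Ccnd1 passed the threshold with each of the 6 BMDM libraries left out. Ccnd3 and Cdkn1a did so in 0 of 6 (edgeR adjusted p from 0.0578 to 0.119 and from 0.0665 to 0.126), and Cdk6 not without WT replicate 1 or 3 or PHD2cko replicate 1 (0.0511, 0.0598 and 0.0570).

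**Figure D3:**
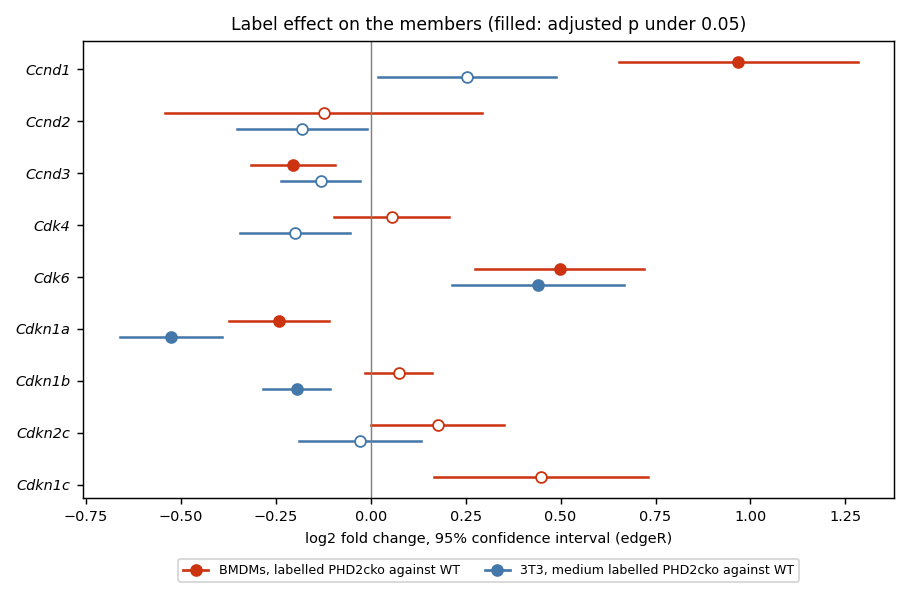
Log2 fold change of the 9 genes tested between the PHD2cko and WT labels in BMDMs (red) and in 3T3 cells by medium (blue), with 95% confidence intervals from edgeR and filled points where the adjusted p was under 0.05. Cdk6 lies to the right of 0 and Cdkn1a to the left in both cell types, whereas Ccnd1 is at 0.97 in BMDMs and 0.25 in 3T3 cells. Cdkn1c is not drawn for 3T3 cells, where it had at most 2 counts per library.

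In 3T3 fibroblasts, medium conditioned by the BMDMs labelled PHD2cko was compared with WT medium. Cdk6 was higher and Cdkn1a and Cdkn1b were lower, 3 of 8 genes against 15.7% of all genes (8.93% higher and 6.75% lower). Cdkn1c, which passed the filter through the BMDM libraries and had at most 2 counts in any 3T3 library, is left out of these counts. The median log2 fold change of the 8 was -0.16, and that of all genes -0.0046. Libraries of the 2 media did not overlap in 5 of the 8 genes, 1 higher (15.4% of all genes) and 4 lower (16.5%), where again 31.9% of all genes had none.

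The inhibitor Cdkn1a changed most among the genes called. It was at 122.4, 110.4 and 116.2 CPM in WT medium and at 85.2, 72.7 and 84.3 CPM in PHD2cko medium. All libraries in PHD2cko medium were below those in WT medium, and the level fell by 0.53 on the log2 scale (SE 0.0621, edgeR adjusted p = 1.98e-04), or 1.44-fold. Cdkn1b, which encodes the inhibitor p27 of resting cells (ENSMUSG00000003031.14, chromosome 6, 134920401 to 134925513), was at 106.5, 105.4 and 100.5 CPM in WT medium and at 88.5, 93.4 and 91.1 CPM in PHD2cko medium. It fell by 0.20 on the log2 scale (SE 0.0409, edgeR adjusted p = 0.00671), again without overlap.
Cdk6 was at 38.1, 51.1 and 52.7 CPM in WT medium and at 64.4, 59.6 and 68.7 CPM in PHD2cko medium. WT replicate 1 was the lowest, and the groups did not overlap (log2 fold change 0.44, SE 0.104, edgeR adjusted p = 0.0132). After subtraction of the macrophage share these values were 0.45 for Cdk6 (edgeR adjusted p = 0.0136), -0.53 for Cdkn1a (2.00e-04) and -0.19 for Cdkn1b (0.00996), and of the 8 genes these 3 passed again and no other. The subtraction was only an estimate. It expected 4.80, 1.00 and 4.56 counts of Cdkn1c in PHD2cko medium, where 0, 0 and 1 were found. At the BMDM level of each gene, the macrophage share would have brought 36, 8 and 34 counts of Cdk6 to the libraries in PHD2cko medium, at most 2.86% of the count, and at most 3.44% for Cdkn1a. In a fit of the 6 3T3 libraries alone, the edgeR adjusted p was 0.0745 for Cdk6, 0.0751 for Cdkn1b and 0.0106 for Cdkn1a. Cdk6 also fell short of the threshold without PHD2cko medium replicate 3 (0.0645).

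The D cyclins and Cdk4 did not pass the threshold with all libraries in the edgeR fit of fibroblasts. Ccnd1 was at 93.2, 100.5 and 101.4 CPM in WT medium and at 126.5, 100.6 and 124.7 CPM in PHD2cko medium, where replicate 2 lay within the WT range. Its log2 fold change of 0.25 (interval 0.02 to 0.49, edgeR adjusted p = 0.138) passed only without that replicate (0.35, adjusted p = 0.0374), which was also the library with the lowest macrophage share among the 3. At the BMDM level of Ccnd1, the macrophage share would have brought 9.4, 1.97 and 8.93 counts to the libraries in PHD2cko medium, at most 0.382% of the count. The part of the macrophage share in this result was not tested in single libraries, and after its subtraction the log2 fold change of Ccnd1 was 0.29 (adjusted p = 0.109). Ccnd2 (ENSMUSG00000000184.12, chromosome 6, 127125162 to 127152193) was at 276.7, 313.7 and 335.3 CPM in WT medium and at 273.7, 279.5 and 263.7 CPM in PHD2cko medium. The ranges overlapped, with a log2 fold change of -0.18 (edgeR adjusted p = 0.148), and Ccnd2 passed only without WT medium replicate 1 (-0.23, adjusted p = 0.0043). Ccnd3, from 124.3 to 135.5 CPM in WT medium and from 113.8 to 122.9 CPM in PHD2cko medium, had a log2 fold change of -0.13 (0.0833). Cdk4 went from 468.2, 397.7 and 379.7 CPM to 358.1, 363.6 and 363.1 CPM without overlap, and its log2 fold change of -0.20 (interval -0.34 to -0.06) came with an edgeR adjusted p of 0.0608. Cdk4 passed with DESeq2 (adjusted p = 0.0495) and without WT medium replicate 3 (-0.26, edgeR adjusted p = 0.0197), whereas without WT medium replicate 1 the log2 fold change was -0.0839. Cdkn2c (ENSMUSG00000028551.14, chromosome 4, 109660876 to 109667189) overlapped, from 75.4 to 92.7 CPM and from 79.3 to 81.3 CPM, with a log2 fold change of -0.03 (interval -0.19 to 0.13).

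Both Cdkn1c and Cdkn2a were at or near 0 in the 3T3 line. Cdkn1c had 1, 2 and 0 counts in the libraries in WT medium and 0, 0 and 1 in those in PHD2cko medium, against 9.09 to 13.5 CPM in BMDMs. With the floor of 3 counts per library it was at least 56.3-fold higher in WT BMDMs than in 3T3 cells in WT medium, and at least 67.0-fold higher under the PHD2cko label, a direct comparison of total-count CPM. At the macrophage share given above, BMDM RNA would have brought 4.80, 1.00 and 4.56 counts of Cdkn1c to the libraries in PHD2cko medium, more than the counts found.

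Cdkn2a, which encodes p16INK4a and p19ARF from alternative first exons (ENSMUSG00000044303.6, chromosome 4, 89274471 to 89294653), had 0 counts in each 3T3 library in WT medium and 2, 0 and 3 in PHD2cko medium. A count of 0 allows up to 0.173 CPM in the libraries in WT medium and 0.193 CPM in PHD2cko medium replicate 2. The macrophage share would have brought 0.228, 0.0476 and 0.216 counts, fewer than found in replicates 1 and 3. WT BMDMs were at least 2.22-fold higher than 3T3 cells in WT medium, a bound that rests on 4 to 8 counts per library, and the gene-level count cannot separate the transcripts. The neighbouring INK4 gene Cdkn2b (p15) had 0 counts in the 3 libraries in WT medium, 1, 0 and 1 in PHD2cko medium and 2 to 8 in BMDMs.
The next protein-coding gene on the other side, Mtap, a methionine salvage enzyme, was instead abundant in 3T3 cells, with 6047 to 10948 counts per library against 243 to 328 in BMDMs. Dmrta1, beyond Cdkn2b, had 0 to 8 counts in every library of either cell type, and the other 7 neighbours had at most 4. In WT medium counts thus dropped from at least 7158 at Mtap to 0 at Cdkn2a. RNA counts do not show whether the DNA is present.

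**Figure D4:**
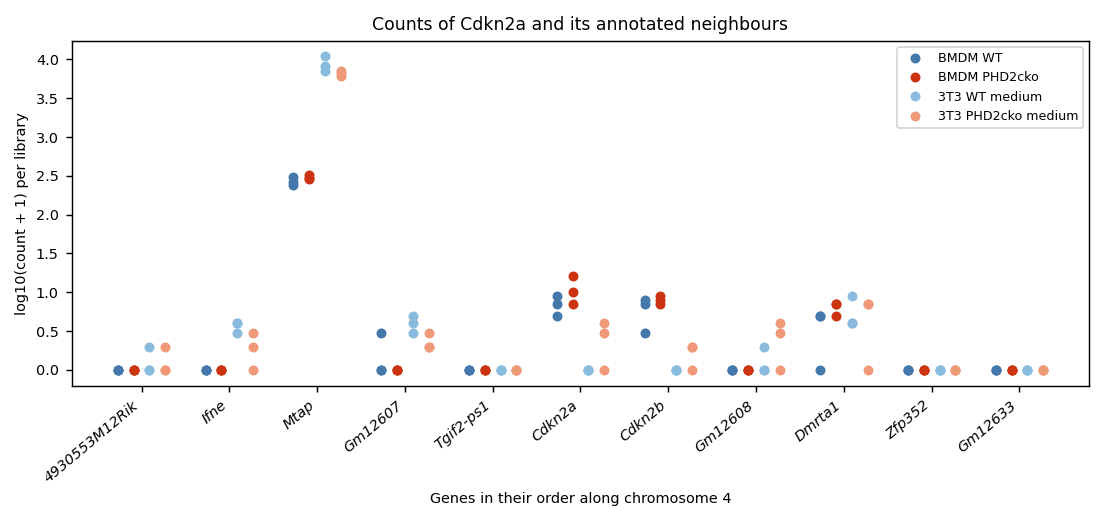
Counts per library, as log10(count + 1), of Cdkn2a and the 5 annotated genes of the table on each side, in their order along chromosome 4, with 3 libraries in each of 4 groups. Mtap is at 6047 to 10948 counts in 3T3 cells, while Cdkn2a and Cdkn2b are at 0 in WT medium and at most 15 counts anywhere.

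The label effects of both cell types were then set against each other by an interaction term, which 12.3% of all genes passed (7.71% higher in 3T3 cells and 4.58% lower). Of the 8 genes, again without Cdkn1c, 2 did, both lower. For Ccnd1 the log2 effect was 0.97 in BMDMs and 0.25 in 3T3 cells, a difference of -0.71 (SE 0.181, edgeR adjusted p = 0.0213). For Cdkn1b it was 0.07 and -0.20, a difference of -0.27 (SE 0.0578, edgeR adjusted p = 0.00880). The effects on Cdkn1a, -0.24 and -0.53, differed by -0.28 with an edgeR adjusted p of 0.0517. It passed with DESeq2 (0.0412), with limma-voom (0.046) and without 3T3 WT medium replicate 2 or PHD2cko medium replicate 1 (edgeR adjusted p = 0.0425 and 0.0493). Those on Cdk6, 0.50 and 0.44, differed by -0.06 (95% confidence interval -0.37 to 0.26). The Ccnd1 difference missed the threshold without BMDM WT replicate 3 (-0.58, adjusted p = 0.0606) or BMDM PHD2cko replicate 1 (-0.60, 0.0626).

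Other genes of the pathway were read from lists. Of 37 listed genes around the D cyclins and RB, 36 were tested. Without Mycn, which had under 10 counts in every BMDM library, 3 of 35 were higher and 1 lower in BMDMs labelled PHD2cko, beside 3.38% and 3.35% of all genes. In total 1 passed without WT replicate 1 or PHD2cko replicate 1 or 2, and 2 passed without WT replicate 3, whereas with the 6 BMDM libraries alone 6 were higher and 2 lower. Myc, a driver of growth, was at 1.4 ± 0.466 CPM in WT and 2.83 ± 0.327 CPM under the label (log2 fold change 1.00, edgeR adjusted p = 0.0236). The repressor E2f7 (0.62) and the E2F partner Tfdp2 (0.22) were also higher, and the activator E2f2 fell by 0.62 on the log2 scale, from 61.3 ± 1.57 to 39.9 ± 1.80 CPM. With the replicate number as a block only Myc and E2f2 of these 4 passed, and Myc was lost with limma-voom (adjusted p = 0.0963) and without WT replicate 1 or 3 or PHD2cko replicate 1 or 2 (edgeR adjusted p from 0.0687 to 0.103). Tfdp2 was lost with DESeq2 (adjusted p = 0.0675), with no filter (0.0977) and with any 1 BMDM library left out (0.0781 to 0.101), and E2f7 with limma-voom (0.0764) and without the same 4 libraries as Myc (0.0904 to 0.205). None of the RB family genes Rb1, Rbl1 and Rbl2 passed, with log2 fold changes of -0.04, 0.17 and -0.03, nor did the INK4 gene Cdkn2d (p19INK4d, 30.5 ± 1.32 and 30.6 ± 2.60 CPM).
In 3T3 cells 7 of the 36 genes were higher in PHD2cko medium and 1 lower, beside 8.93% and 6.75% of all genes, among them E2f8 (log2 fold change 0.48), Rbl1 (0.29) and Mdm2 (-0.17), while Rb1 (-0.07), Rbl2 (-0.13) and Cdkn2d (0.15) did not pass. A fit blocked on replicate number left 5 higher and 0 lower, without E2f6 (edgeR adjusted p = 0.0567), Rbl1 (0.0523) and Mdm2 (0.0528), and with the 3T3 libraries alone 4 were higher and 0 lower, without E2f6, E2f8, Rbl1, Skp2 and Mdm2 (0.17, 0.0913, 0.0855, 0.0738 and 0.174) but with E2f7 (0.0288). E2f7 also passed with DESeq2 (0.0352), with limma-voom (0.0224), with at least 10 counts in every library (0.0456) and after subtraction of the macrophage share (0.0493). In total 3 passed without PHD2cko medium replicate 3, 4 without its replicate 1 and 5 without WT medium replicate 2 or 3, but 12 without WT medium replicate 1, Rbl2 and Cdkn2d among them. The largest differences, of E2f6 (1.30) and E2f2 (1.28), were at low levels, 1.39 ± 0.846 and 4.03 ± 1.29 CPM in PHD2cko medium, in genes that were 39.4-fold and 36.5-fold higher in WT BMDMs than in 3T3 cells. After subtraction of the macrophage share E2f6 no longer passed (0.96, edgeR adjusted p = 0.138), and E2f2 did (1.15, 0.00404). E2f6 was also lost with limma-voom (0.156) and without any 1 of the 3T3 libraries other than PHD2cko medium replicate 2 (0.0721 to 0.218).

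Since Cdkn1a is a p53 target, 14 other targets of p53, of 15 listed, were tested beside it, Mdm2 being on this list and on that of the pathway. In 3T3 cells in PHD2cko medium 12 of the 14 were lower and 0 were higher, beside 6.75% and 8.93% of all genes, with a median log2 fold change of -0.32. Trp53inp1 fell by 0.69 on the log2 scale (edgeR adjusted p = 1.51e-04), the cyclin G gene Ccng1 by 0.57 and Eda2r by 0.42 (0.0313). Eda2r was lost with DESeq2 (adjusted p = 0.0741) and with the 3T3 libraries alone (edgeR adjusted p = 0.124). It was also lost without any 1 of the 3T3 libraries other than WT medium replicate 1 (edgeR adjusted p from 0.0684 to 0.115). After subtraction of the macrophage share 11 of the 14 were lower, without Eda2r, in a fit of the 3T3 libraries alone 6 were, and without PHD2cko medium replicate 3, 7 were. Eda2r had under 10 counts in every BMDM library. Of the other 13, in BMDMs labelled PHD2cko, 3 were lower, namely Zmat3 (-0.34), Aen (-0.26) and Sesn2 (-0.25), and 1 was higher, the polo-like kinase gene Plk2 (0.45), beside 3.35% lower and 3.38% higher of all genes. The lower count was 0 without WT replicate 1 or PHD2cko replicate 2, 1 without PHD2cko replicate 1 or 3, and 6 with the BMDM libraries alone. Aen was also lost with limma-voom (adjusted p = 0.0633) and with no filter (edgeR adjusted p = 0.0634). Without any 1 BMDM library other than WT replicate 3, Aen was lost as well (edgeR adjusted p from 0.073 to 0.175). Trp53, which encodes p53, was not among the genes called in either cell type.

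Markers of proliferation, on which the pathway acts, were read last. Of 16 genes, 8 were higher and 0 lower in BMDMs labelled PHD2cko, beside 3.38% and 3.35% of all genes, with a median log2 fold change of 0.32. The count was 5 without WT replicate 1 or PHD2cko replicate 1, and 13 with the BMDM libraries alone. They included Rrm2, a subunit of ribonucleotide reductase (14.5 ± 0.442 and 27.2 ± 5.26 CPM, log2 fold change 0.91, edgeR adjusted p = 7.00e-04), the replication clamp Pcna (0.48) and the helicase subunit Mcm6 (0.43). In 3T3 cells in PHD2cko medium, 13 of the 16 were higher and 0 lower, beside 8.93% and 6.75% of all genes, with a median of 0.30. Mki67 was at 128.3 ± 26.7 CPM in WT medium and 200.5 ± 7.81 CPM in PHD2cko medium (log2 fold change 0.64, edgeR adjusted p = 0.00354), followed by Mcm5 (0.57) and the checkpoint kinase Bub1 (0.42). The same 13 genes passed after subtraction of the macrophage share, and 8 passed without WT medium replicate 3 or PHD2cko medium replicate 1 or 3. From cell assays, the paper reports unchanged proliferation of PHD2cko BMDMs and similar proliferation of fibroblasts in the conditioned media. RNA levels of these markers do not measure cell division.

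**Figure D5:**
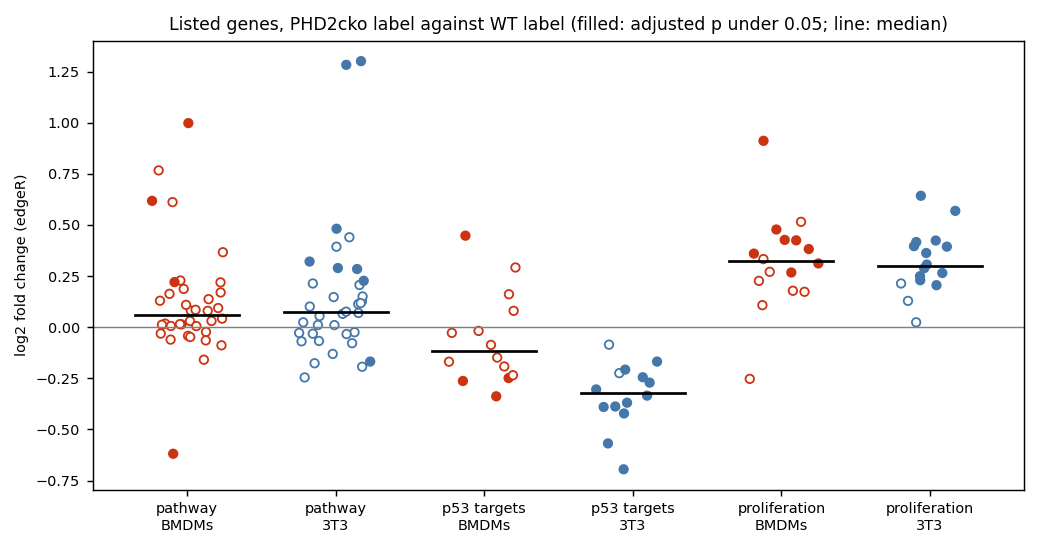
Log2 fold change between the PHD2cko and WT labels for each tested gene of 3 lists, in BMDMs (red) and 3T3 cells (blue), with filled points where the edgeR adjusted p was under 0.05 and a line at the median. All 14 p53 targets lie below 0 in 3T3 cells, 12 of them filled, and the proliferation markers lie above 0 except for 1 gene in BMDMs.

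Over the 12 libraries, the genes with the level pattern most like Ccnd1 were Igf2bp2 (Pearson r of log2 CPM 0.994) and Cdca7l (0.992). For Ccnd2 they were Adamts1 and Cacna1c (r = 0.9995 each), and for Ccnd3 Fam204a and Actr3b (0.997 each). Igf2bp2 was at 13.1, 22.3, 91.9 and 95.3 CPM on average in BMDMs WT, BMDMs PHD2cko, 3T3 in WT medium and 3T3 in PHD2cko medium. These likenesses rest mostly on the difference between the cell types, which all 12 points share.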

How the data were processed

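The authors deposited estimated counts, unnormalized and unfiltered, which Kallisto had produced from single reads of polyA RNA with GRCm38 as reference. Tool versions, strand setting and how the estimates became whole numbers are not given in the sources used here. The table held 32544 genes in 12 libraries, of 4 groups named by the labels. A background allele that all BMDM donors share is not reported here. The 10 genes and all lists were chosen with earlier results of these data known. Genes named from lists were, per label comparison and direction, up to 3 past the threshold with the largest log2 fold change, besides the RB family, Cdkn2b and Cdkn2d.

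Counts were tested with edgeR 4.0.16 (R 4.3.3; quasi-likelihood, TMM, filterByExpr, which kept 14285 genes and 9 of the 10) in one fit of all libraries, by two-sided contrasts. The p-values were adjusted over the kept genes by the Benjamini-Hochberg method, and 0.05 was the limit. The 95% confidence intervals and SE are from this fit, and floors of 3 counts cover counting error only. The macrophage share was the summed CPM of 20 markers over their sum in BMDMs of the same label. To subtract it, the mean BMDM profile scaled to that share was taken off every 3T3 library and values were rounded and kept at or above 0. Library totals ran from 15516465 to 25199770.

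Alternatives were DESeq2's size factors, DESeq2 1.42.0, limma-voom 3.58.1 (the method of the study), other filters, the replicate number as a block, the 6 libraries of a cell type alone, each library left out, the subtraction, the mean transcript length and each part of the marker list. The tests were checked on simulated counts. Identifiers and positions come from GENCODE on GRCm38, and promoters from RefSeq on GRCm38.p6.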

Additional observations from a re-analysis of the deposited data

Results flagged for a closer look

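For 2 genes of the group the label effect differed between the cell types by the interaction term of edgeR. The log2 effect of the PHD2cko label on Ccnd1 was lower by -0.71 in 3T3 cells than in BMDMs (adjusted p = 0.0213), and Ccnd1 was higher under the label in 3 of 3 BMDM libraries and overlapped in 3T3 cells. The effect on Cdkn1b was lower by -0.27 (adjusted p = 0.00880). All BMDM libraries labelled PHD2cko lay above WT, as in 16.3% of all genes tested. All 3T3 libraries in PHD2cko medium lay below those in WT medium, as in 16.5% of all genes tested. Only the fall of Cdkn1b in 3T3 cells passed the threshold. In BMDMs its log2 effect of 0.07 did not (edgeR adjusted p = 0.377), so a rise there was not shown. The interaction term passed the threshold for 12.3% of all genes tested.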

How the results depend on the processing

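With the 6 libraries of a cell type alone, 2534 genes passed in BMDMs (961 with all 12 libraries) and 912 in 3T3 cells (2240), and of the group 6 genes passed in BMDMs (4), with Cdkn1c and Cdkn2c besides, and 1 in 3T3 cells, Cdkn1a. Each library left out in turn gave 527 to 664 genes and 1 to 2 genes of the group in BMDMs, 1260 to 2757 genes in 3T3 cells, and 1 to 3 genes of the group for the interaction. With the mean transcript length, 44, 40, 42 and 40 of the 45 pairs of genes kept their order in BMDMs WT, BMDMs PHD2cko, 3T3 in WT medium and 3T3 in PHD2cko medium. Each part of the marker list gave a share of 0.0282 or 0.338% in WT medium, and 1.496 or 2.29% in PHD2cko medium. The cause of these shifts was not tested.

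With libraries left out, the sign turned for genes that were not called. In BMDMs the log2 fold change ran from -0.28 to 0.018 for Ccnd2, from -0.0571 to 0.0629 for Cdkn2d, from -0.0871 to 0.087 for E2f8 and from -0.12 to 0.54 for Eda2r, and with at least 10 counts in every library it was -0.0017 for Cdkn2d. In 3T3 cells it ran from -0.0862 to 0.0908 for Cdkn2c. The interaction ran from -0.20 to 0.10 for Ccnd2 and from -0.16 to 0.0212 for Cdk6. Cdkn1c in BMDMs passed with DESeq2 (adjusted p = 0.0304), limma-voom (0.0119) and the BMDM libraries alone (0.00201).

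Libraries with the same number did not deviate together (mean correlation 0.00127 in BMDMs, -0.00022 in 3T3 cells). With the replicate number as a block, 815 genes passed in BMDMs, 1953 in 3T3 cells, 12135 between cell types and 1541 for the interaction, and of the group 3, 3, 9 and 2 (4, 3, 9 and 2 without the block, Cdkn1c being among the 9 both times). Ccnd3 in BMDMs was lost (adjusted p = 0.0573). Cdkn2a and Cdkn2b were tested only where the filter let them pass, on at most 15 counts per library.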
